A study of Mus musculus with 12 samples.

Results

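The conjugation enzymes of phase II metabolism were followed in mouse liver at 3 ages. Members were the protein-coding genes, 1 Sult symbol aside, whose GENCODE M21 symbol begins with Ugt1, Ugt2 or Ugt3, with Gst and a class letter (a, k, m, o, p, t or z) before a digit, with Mgst and a digit, or with Sult and a digit. The rule uses names only and gave 66 of the 53465 genes in the count table: 25 glutathione S-transferases (Gst and the membrane-bound Mgst), 21 UDP-glycosyltransferases (Ugt) and 20 sulfotransferases (Sult), in 12 families. The libraries were made from liver of C57BL/6N mice that were 3 months (young), 12 months (middle-aged) or 18 months (aged) old, with 4 animals per age and 1 library per animal, and no treatment or genetic change was named in the labels. The labels describe RNA extraction from young and old livers only. The study took its liver RNA-seq at 3 ages from a published atlas and also made its own from 4 young and 4 old livers. The preparation of these 12 libraries is therefore uncertain. The study's own mice were male. In all 12 libraries the Y-linked Ddx3y had between 577 and 788 normalised counts and Xist had at most 2.01.

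Conjugation couples a polar group to a foreign chemical, a hormone, a bile acid or a breakdown product so that it can leave the cell in bile or urine. Ugt enzymes sit in the endoplasmic reticulum and transfer a sugar, mostly glucuronic acid from UDP-glucuronic acid. Gst enzymes add the tripeptide glutathione to reactive, electrophilic molecules, and Sult enzymes transfer a sulfonate group from the donor PAPS. Liver is the main site of these reactions, and many of the genes lie in clusters of close copies.

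Library depth was similar across ages, with 8124312 to 10527159 counts on genes. Values below are counts divided by DESeq2 size factors (normalised read counts), given as mean ± SD with n = 4 animals per age. A count of 3 in a library corresponds to 2.62 to 3.82 normalised counts. Mitochondrial transcripts took 19.2% of gene counts in young replicate 2 and 5.48% to 10.7% in the others. Young replicate 3 and middle-aged replicate 1 had the most genes detected, 22284 and 19982, against 16361 to 17563. The spike-in composition split the libraries into replicates 1 and 2 and replicates 3 and 4 of every age. After centring each spike-in, the correlation of composition was 0.876 to 0.98 for pairs within a set and -0.973 to -0.892 between sets, and what the sets stand for is not given in the sources used here. The 6 hepatocyte markers summed to between 724960 and 971599 normalised counts in each library, and none of the 6 was called between ages.

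Sequence was read first for what it says about counting. Gstp1 and Gstp2 share 98.1% of their coding bases and Gsta1 and Gsta2 share 97.6%, whereas Gstp1 and Gstp3 share 72.5%. The first 60 coding bases of the Gstp genes are shown because Gstp1 had 1 of the largest differences in aged liver, and capitals mark bases that differ from Gstp1.
Gstp1: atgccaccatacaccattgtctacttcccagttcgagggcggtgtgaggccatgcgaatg
Gstp2: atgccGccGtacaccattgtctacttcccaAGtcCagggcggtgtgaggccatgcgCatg
Gstp3: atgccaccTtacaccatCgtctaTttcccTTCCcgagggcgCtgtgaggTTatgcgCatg
Gstp2 differs at 6 of these bases and Gstp3 at 11. Of all windows of 100 bases in the annotated transcript, 52.8% in Gstp1, 63.5% in Gstp2 and 35% in Gsta2 occur unchanged in a transcript of another gene. The share is 58.5% in Ugt1a9, since the Ugt1a genes on chromosome 1 join different first exons to the same later exons, and 24.7% in Ugt2b5. No such window was found in Ugt2b1, Ugt3a1, Mgst1 or Mgst3. The share is 94.9% in Ugt2a1, 94.4% in Ugt2a2 and 24.2% in Ugt2b38. Single-gene values of these genes and of the Ugt1a, Gsta1, Gsta2, Gstp1, Gstp2, Ugt2b5 and Sult2a members therefore depend on how reads with several matches were counted. The sources used here do not give this setting.

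Promoter windows (250 bases before to 50 after each RefSeq start, GRCm38.p6) were given for 58 of the 66 members, as 69 windows. A set of 5 motifs was searched on both strands. The D-box is recognised by the clock output factors Dbp, Tef and Hlf and by their counterpart Nfil3. The pattern searched for it, TTANGTAA, is a looser form with any base at N. It was in 2.32% of all 32851 windows and in 3 of the members' 69, those of Ugt2b1, Ugt1a9 and Sult1a1. The stretches before Ugt2b1 and Ugt1a9 are shown because both genes were lower at both later ages, with the match in capitals.
Ugt2b1, chr5:86926531-86926630, minus strand: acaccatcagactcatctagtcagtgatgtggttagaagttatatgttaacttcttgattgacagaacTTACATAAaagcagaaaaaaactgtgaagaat
Ugt1a9, chr1:88070631-88070730, plus strand: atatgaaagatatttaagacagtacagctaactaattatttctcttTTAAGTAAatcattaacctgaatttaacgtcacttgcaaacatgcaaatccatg
The antioxidant response element core TGACNNNGC was in 4 member windows (Gsta3, Gstm5, Gstm7 and Mgst1) against 12.4% of all windows. The xenobiotic response element core TNGCGTG was in 3 (Gsta2, Sult1d1 and Ugt1a5) against 5.07%, the Hnf4a site CAAAGTCCA in 1 (Sult1b1) against 0.475%, and the E-box CACGTG in none against 7.15%. A match is a description of letters and not of binding.

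Members differed in level by several orders of magnitude. Of the 66, 58 had at least 1 count, 43 had a mean of at least 10 normalised counts, 17 a mean of at least 1000, and 8 (Sult2a3 to Sult2a6, Sult6b2, Ugt1a8, Ugt2a1 and Ugt2a2) had no count in any library. Nearly all of the Ugt2a1 and Ugt2a2 sequence recurs in other genes, so their zeros do not show that expression was absent. Together the members took 1.23% to 1.53% of gene counts in each library. Per kb of exon and averaged over the 12 libraries, the highest were Mgst1 (14197 normalised counts per kb), a membrane enzyme with glutathione transferase and peroxidase activity, Gstm1 (8029) and Gsta3 (5143), which detoxifies aflatoxin epoxide. They were followed by Ugt2b5 (4582), Gstp1 (4047), Ugt2b1 (3233) and Ugt2b36 (2980). The order differed between ages: Gstp1 had 6657 per kb in young liver, above Ugt2b5 (5041) and Gsta3 (5033), and 2395 in aged liver, below Ugt2b36 (2818). Gstz1 (1689), which also works in tyrosine breakdown, and Sult1a1 (1693), which sulfonates phenols, had close levels on this scale. A single member dominated most families: Mgst1 held 99.5% of Mgst counts, Gstp1 95.9% of Gst pi, Gsta3 94.6% of Gst alpha and Gstz1 80.8% of the kappa, omega and zeta group. In Ugt2, Ugt2b5 held 27.7% over all libraries, but in young liver Ugt2b1 was the higher of the pair (means of 12201 and 9366 normalised counts).

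**Figure D1:**
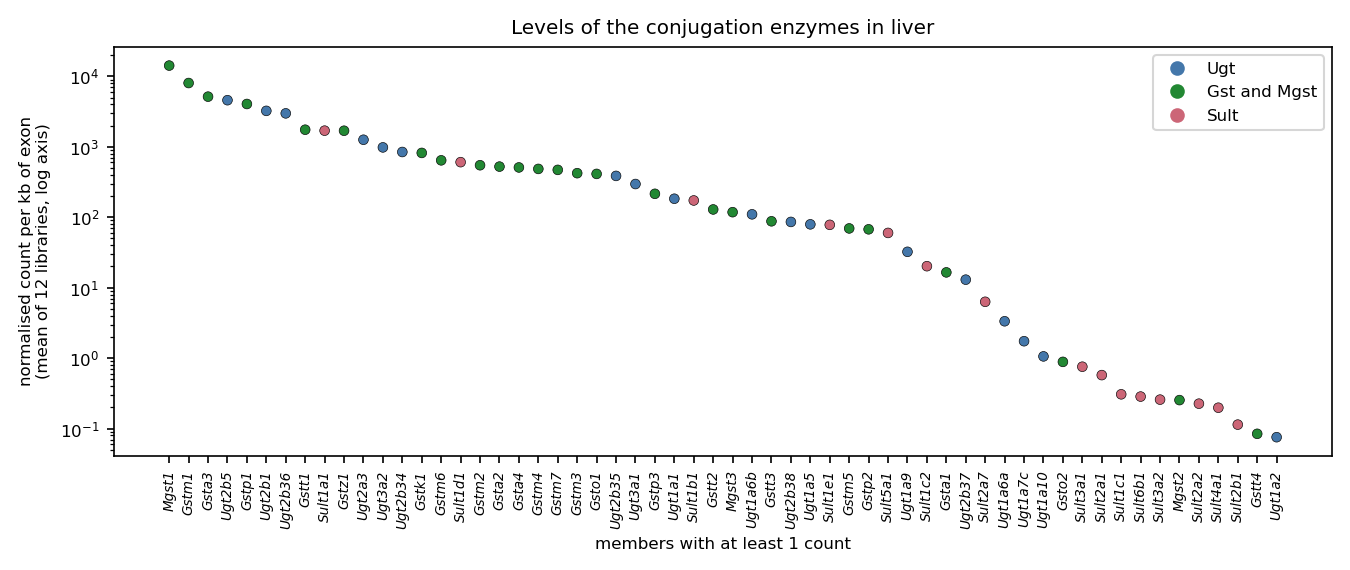
Mean normalised read count per kb of exon over 12 libraries (vertical log axis) for the 58 members with at least 1 count, in order of level and coloured by class. Mgst1 stood at 14197 and Gstm1 at 8029, while most Sult2 to Sult6 members lay near or under 1.

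In aged against young liver, 5 of the 45 members tested passed the DESeq2 Wald test at an adjusted p under 0.05. Ugt2b1, Ugt1a9 and Mgst1 were lower and Gsta2 and Ugt3a1 higher in aged animals. This is 11.1% of members tested beside 3.58% of all genes tested, with 2 members higher (background 1.87%) and 3 lower (background 1.71%). In middle-aged against young liver 6 of 43 passed (14%, beside 6.41% of all genes): Gsta2, Mgst3 and Ugt3a1 were higher (background 3.51%) and Ugt1a9, Ugt2b1 and Ugt2b37 lower (background 2.9%). None of 40 passed in aged against middle-aged liver, where 1.14% of all genes did. At an unadjusted p under 0.05 that comparison held 3 members with DESeq2 and 3 with edgeR, which also called none. Across the 3 ages together, the likelihood ratio test called 6 of 45 (13.3%, beside 6.96% of all genes), namely Gsta2, Mgst1, Ugt1a9, Ugt2b1, Ugt2b37 and Ugt3a1. The genes lie in GRCm38 at chr5:86916638-86926530 (Ugt2b1), chr1:88070800-88218997 (Ugt1a9), chr5:87240493-87254804 (Ugt2b37), chr15:9276888-9315032 (Ugt3a1), chr9:78331018-78355788 (Gsta2), chr6:138140316-138156755 (Mgst1) and chr1:167371966-167393841 (Mgst3), and gene-level counts do not separate their exons. The first pair of comparisons share the young libraries, so their values are not independent.

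The directions given are relative to the other genes. Scaled by spike-in counts, an alternative chosen after seeing the data, the median of 8888 genes averaging 50 or more normalised counts was higher by 1.258 in aged and 1.578 in middle-aged than in young liver on the log2 scale. On that scale 37 of the 39 members at this level were higher in aged than in young liver, against 19 with size factors, and 38 in middle-aged liver, against 21. The sign of Ugt2b1 (0.18), Ugt1a9 (0.17) and Mgst1 (0.98) was then positive in aged liver, and that of Ugt2b1 (0.75) and Ugt1a9 (0.48) in middle-aged liver. Relative to the median of all genes, Ugt2b1 stood at -1.07, Ugt1a9 at -1.09 and Mgst1 at -0.28 in aged liver, and Gsta2 at 0.59 and Ugt3a1 at 0.79. Spike-ins took 3.5% to 10.6% of counts in young, 1.59% to 2.73% in middle-aged and 1.87% to 3.51% in aged libraries. What set these shares was not tested.

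Most members were not called at any age. Among the 43 members with a mean of at least 10, the median log2 fold change was 0.01 in aged and 0.03 in middle-aged against young liver, beside 0.01 and 0.01 over the 11804 genes at that level. In aged liver 27 of the 43 (62.8%) lay within 0.5 of zero on the log2 scale, beside 88.3% of all genes at that level. In middle-aged liver 30 (69.8%) did, beside 87%. Normalised counts of young and aged animals did not overlap for 7 of the 43 members (background 7.9%), those of young and middle-aged animals for 13 (background 15.6%), and those of middle-aged and aged animals for 1, Gsta1 (background 6.16%).

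**Figure D2:**
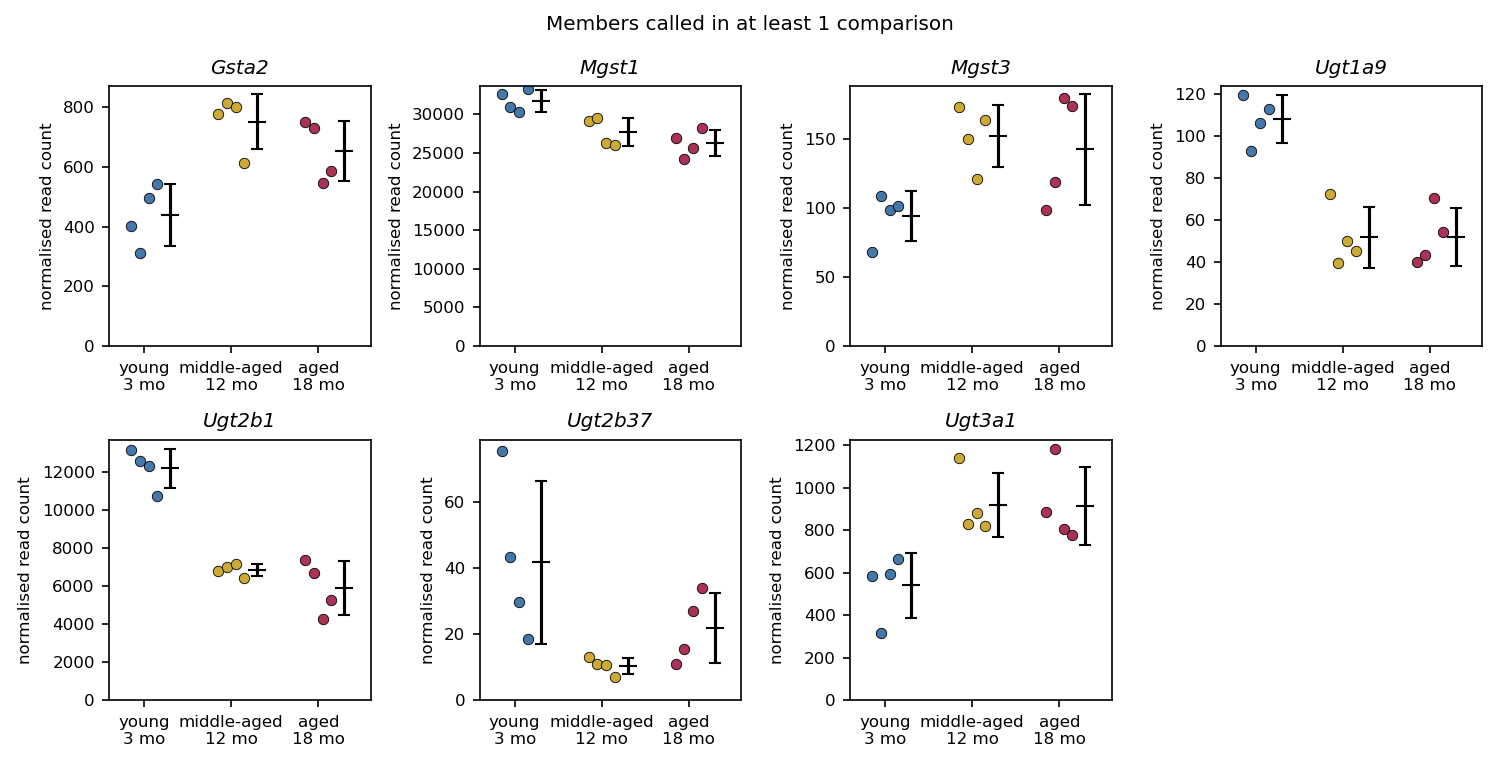
Normalised read count per library (vertical axis, from 0) by age for the 7 members called in at least 1 comparison, with mean and SD (n = 4) beside the points. Scaled by size factors, Ugt2b1, Ugt1a9 and Mgst1 lay lower, and Gsta2 and Ugt3a1 higher, in every aged animal than in every young one.

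Ugt2b1, a glucuronidating enzyme for steroids and many drugs, had the smallest adjusted p of the members in both comparisons with young liver. Its counts were 13167, 12581, 12331 and 10725 at 3 months, 6810, 6990, 7147 and 6438 at 12 months and 7396, 6706, 4260 and 5266 at 18 months (replicates 1 to 4). Every young value was above every later one. The mean fell from 12201 ± 1044 to 6846 ± 305 and 5907 ± 1412. The log2 fold change was -1.05 ± 0.15 (SE, adjusted p = 1.34e-09) in aged and -0.83 ± 0.15 (adjusted p = 3.9e-06) in middle-aged against young liver by DESeq2, so 0.484 and 0.561 of the young level. Ugt2b1 made up 34% of Ugt2 counts at 3 months, 23.6% at 12 months and 21.6% at 18 months. The call held in each of 23 refits of either comparison, of which 1 replaced it by the sum of the Ugt2b members, including those within replicates 1 and 2 alone and within replicates 3 and 4 alone. Fits within such a subset, here and below, held 2 animals per age, so their p-values lean heavily on a spread estimate shared across genes.

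None of the 7 other Ugt2 members with counts was called in aged against young liver, where 6 had a negative fold change and Ugt2b34 one of 0.02. Ugt2b5, the highest of the family averaged over the 12 libraries, had 9366 ± 563 at 3 months, 8189 ± 863 at 12 months and 7984 ± 715 at 18 months. All 4 aged values lay below the young ones, but the log2 fold change of -0.23 ± 0.09 did not pass (adjusted p = 0.163). Ugt2b34, Ugt2b35, Ugt2b36 and Ugt2a3 had log2 fold changes between -0.21 and 0.02 in aged against young liver and did not pass. Ugt2b37, a low member on chromosome 5, had 75.4, 43.3, 29.6 and 18.6 at 3 months, 12.9, 10.8, 10.6 and 7.02 at 12 months and 11, 15.4, 27.1 and 34 at 18 months. Middle-aged animals were all below the young ones, and the aged ones overlapped them. Its middle-aged difference was -2.01 ± 0.50 (adjusted p = 0.00321) and its aged one -0.92 ± 0.47 (adjusted p = 0.313). Summed over the 7 Ugt2b members, the log2 fold change was -0.44 ± 0.0791 (SE, adjusted p = 1.93e-05) in aged and -0.34 ± 0.0791 (adjusted p = 0.0014) in middle-aged against young liver.

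Ugt1a9, which acts on phenols, was lower at both later ages. It had 119.9, 93, 107 and 113 at 3 months, 72.5, 39.5, 50.3 and 45.1 at 12 months and 40.1, 43.4, 70.8 and 54.5 at 18 months. All later values were below the lowest young one. The log2 fold changes were -1.05 ± 0.24 (adjusted p = 0.00123) in aged and -1.07 ± 0.24 (adjusted p = 0.000728) in middle-aged against young liver. Ugt1a1, the bilirubin-conjugating enzyme, had 356 ± 82.9, 422 ± 33.8 and 442 ± 68.7 in young, middle-aged and aged liver, with a log2 fold change of 0.31 ± 0.17 in aged liver (adjusted p = 0.374). Ugt1a6b, an enzyme for small planar phenols, gave 0.38 ± 0.21 (adjusted p = 0.378). The 9 Ugt1a rows summed gave 0.31 ± 0.197 (adjusted p = 0.47) in aged and 0.31 ± 0.197 (adjusted p = 0.358) in middle-aged liver, the opposite sign to Ugt1a9. Ugt1a9 lost its calls within replicates 1 and 2 alone, at -1.35 (adjusted p = 0.119) in aged and -0.93 (adjusted p = 0.449) in middle-aged liver, and within replicates 3 and 4 alone, at -0.81 (adjusted p = 0.352) and -1.21 (adjusted p = 0.0632).

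Ugt3a1, which uses UDP-N-acetylglucosamine in place of UDP-glucuronic acid, was higher at both later ages. Its counts were 584, 317, 595 and 664 at 3 months, 1139, 828, 883 and 822 at 12 months and 888, 1182, 807 and 779 at 18 months, without overlap between young and either later age. The log2 fold changes were 0.76 ± 0.21 (adjusted p = 0.0147) and 0.76 ± 0.21 (adjusted p = 0.00949). Young replicate 2, the library with the largest mitochondrial share, had the lowest value. The call was lost without aged replicate 2 (adjusted p = 0.0994), without middle-aged replicate 1 for the middle-aged comparison (adjusted p = 0.0517), and with edgeR (adjusted p = 0.0829 and 0.0639). Of all its refits, 19 kept and 3 lost the aged call, and 18 kept and 4 lost the middle-aged one. Within replicates 1 and 2 the aged difference was 1.20 (adjusted p = 0.00285), and within replicates 3 and 4 it was 0.33 (adjusted p = 0.332). Its neighbour Ugt3a2, the higher of the pair, had 3101 ± 429, 3158 ± 258 and 2862 ± 259 and a log2 fold change of -0.12 ± 0.11 in aged liver (adjusted p = 0.694).

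Among the glutathione S-transferases, Gsta2 and the microsomal enzymes passed the test. Gsta2 had 401, 313, 498 and 544 at 3 months, 778, 814, 803 and 615 at 12 months and 752, 730.1, 548 and 588 at 18 months. The lowest value of each later age was above the highest young one, by a narrow margin in aged animals. It rose 1.71-fold in middle-aged (log2 0.78 ± 0.17, adjusted p = 0.000716) and 1.49-fold in aged liver (log2 0.57 ± 0.17, adjusted p = 0.032). Within replicates 1 and 2 the aged difference was 1.05 (adjusted p = 0.000126), and within replicates 3 and 4 it was 0.12 (adjusted p = 0.94). The middle-aged difference was 1.16 (adjusted p = 8.53e-06) and 0.44 (adjusted p = 0.21) in the same subsets. The aged call was also lost without young replicate 1 (adjusted p = 0.101), young replicate 2 (0.143), aged replicate 1 (0.0563) or aged replicate 2 (0.133). The same held with edgeR (0.0978), and with Gsta1 and Gsta2 summed (0.54 ± 0.175, adjusted p = 0.0554). Of the refits of Gsta2 alone, 12 kept the aged call and 10 lost it, the fit of young and aged libraries only among the latter. Gsta3 and Gsta4, the latter an enzyme for the lipid peroxidation product 4-hydroxynonenal, had log2 fold changes of 0.07 ± 0.12 and 0.22 ± 0.15 in aged liver and did not pass.

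Mgst1 had 32684, 30885, 30257 and 33214 at 3 months, 29112, 29466, 26223 and 26069 at 12 months and 26990, 24244, 25636 and 28169 at 18 months. Every later value was below every young one, yet the difference was small, -0.27 ± 0.07 in aged (adjusted p = 0.00595) and -0.20 ± 0.07 in middle-aged liver (adjusted p = 0.0631). The aged call was lost without aged replicate 3 (adjusted p = 0.0509) and with edgeR (adjusted p = 0.153), as well as within replicates 1 and 2, at -0.31 (adjusted p = 0.711), and within replicates 3 and 4, at -0.24 (adjusted p = 0.241). Mgst3, a membrane enzyme related to leukotriene C4 synthase, had 67.9, 108, 98.3 and 102 in young and 173, 149.9, 121 and 163 in middle-aged animals, without overlap, and 98.3, 118, 179 and 173 in aged ones. It passed in middle-aged against young liver (0.69 ± 0.23, adjusted p = 0.0405). The call was lost without any 1 of the 4 young libraries (adjusted p = 0.1, 0.0638, 0.0826 and 0.0651) or without middle-aged replicate 1, 2 or 4 (adjusted p = 0.109, 0.0992 and 0.111). Of its refits in that comparison, 9 kept the call and 13 lost it, the edgeR fit among the latter. In aged against young liver it gave 0.60 ± 0.23 (adjusted p = 0.119).

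The 2 highest members by mean count of the Gst mu family, of the Gst theta family and of the kappa, omega and zeta group had small fold changes and no call. Gstm1 had 10872 ± 1218 at 3 months, 12245 ± 1007 at 12 months and 12364 ± 897 at 18 months, a log2 fold change of 0.19 ± 0.10 in aged liver (adjusted p = 0.326). Gstm6 gave -0.04 ± 0.14, Gstt1 0.12 ± 0.13, Gstt2 0.01 ± 0.16, Gstk1 0.01 ± 0.10 and Gstz1 -0.08 ± 0.08, and none of these passed. The standard errors of these members were 0.08 to 0.16, so differences as large as those of Ugt2b1 lay outside 2 SE of every one of them. In the same families Gstm3 gave -0.59 ± 0.23 (adjusted p = 0.142) and Gstt3 0.60 ± 0.28 (adjusted p = 0.237) in aged liver. Both were uncalled there but called within replicates 3 and 4 alone and without aged replicate 1. Gstm2, Gstm4, Gstm5, Gstm7 and Gsto1 lay between -0.19 and 0.19.

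**Figure D3:**
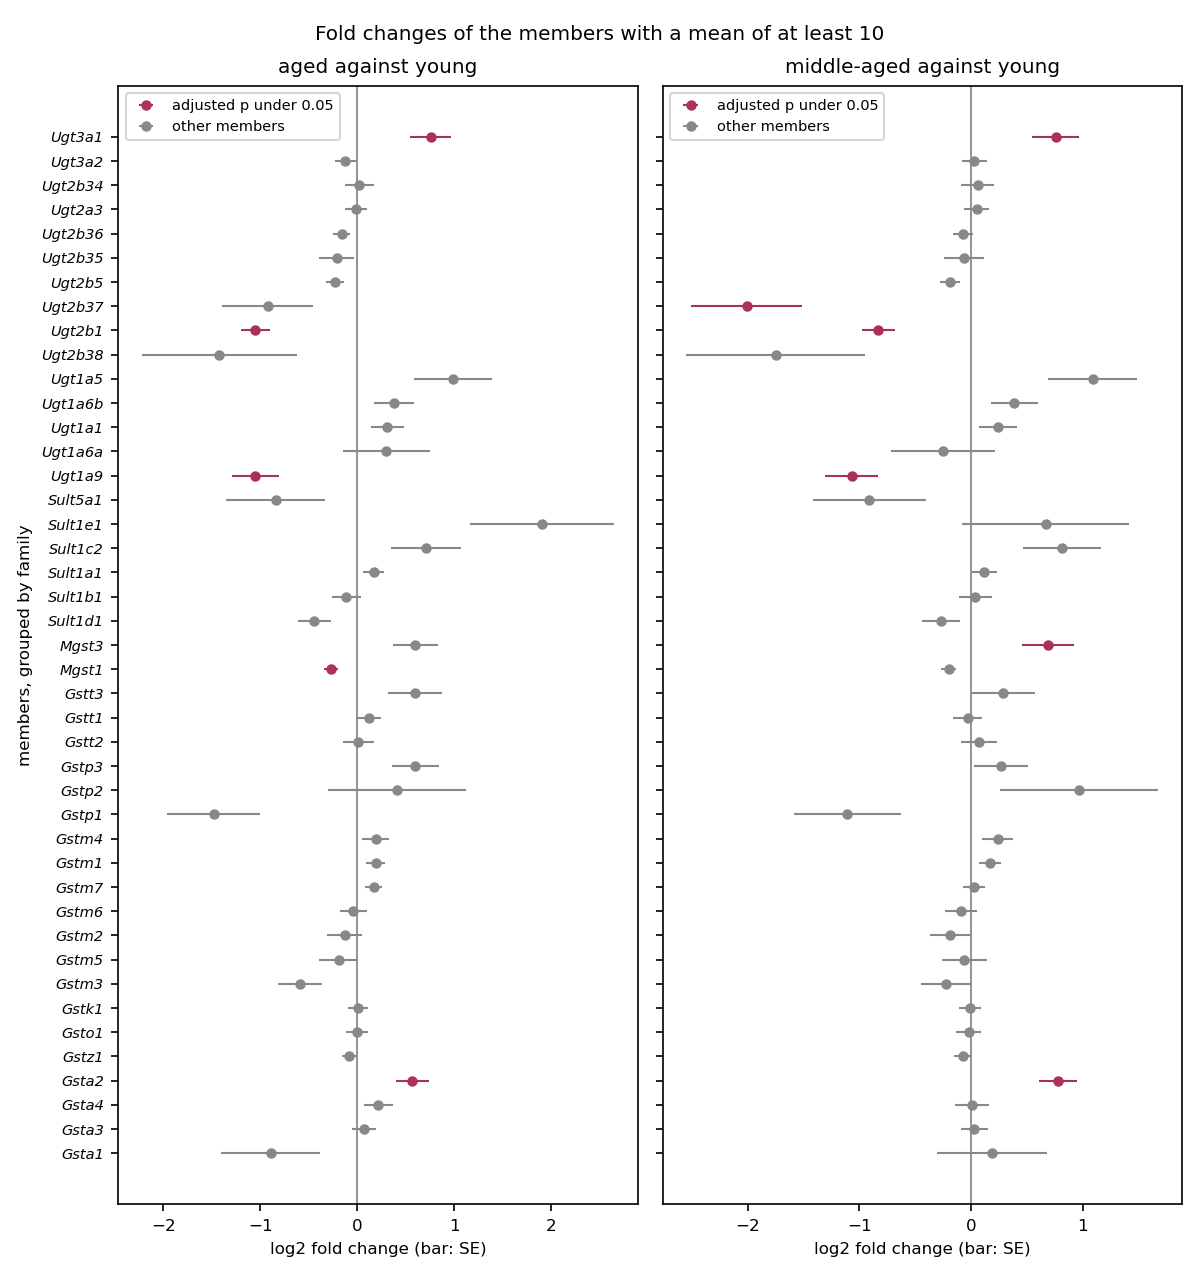
Log2 fold change with SE (horizontal axis) for the 43 members with a mean of at least 10, in aged (left) and middle-aged (right) against young liver, grouped by family. Red points are members with a DESeq2 adjusted p under 0.05. Ugt2b1 stood at -1.05 and -0.83, while Gstz1 and Gstk1 lay within 0.08 of zero.

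Among uncalled members averaging 50 or more normalised counts, those with the largest aged differences were Gstp1, Sult1e1, Sult5a1, Ugt1a5 and Ugt2b38. Gstp1, a pi-class enzyme known to be higher in male than in female mouse liver, had 10053, 13909, 9331 and 7928 at 3 months, 3612, 4864, 6513 and 4140 at 12 months and 7654, 3289, 1647 and 2237 at 18 months. All later values were below the young ones. The log2 fold change was -1.48 ± 0.48 (adjusted p = 0.0569) in aged and -1.11 ± 0.48 (adjusted p = 0.146) in middle-aged liver. Within replicates 3 and 4 the aged difference was -2.15 (adjusted p = 1.34e-08), within replicates 1 and 2 -1.13 (adjusted p = 0.609). With the spike-in set as a covariate Gstp1 passed in aged liver (-1.56 ± 0.43, adjusted p = 0.0146), as it did without aged replicate 1, and in a fit of young and middle-aged libraries only it passed in middle-aged liver (-1.11 ± 0.20, adjusted p = 2.45e-06). Its close copy Gstp2 gave 0.41 ± 0.71 (adjusted p = 0.858) and Gstp3 0.60 ± 0.24 (adjusted p = 0.141).

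Sult1e1, the oestrogen sulfotransferase, had 104, 36.9, 29.6 and 12.7 at 3 months, 33.8, 53.9, 120.1 and 84.2 at 12 months and 383, 162, 52.4 and 89.4 at 18 months. Aged replicate 1 was the highest, and the groups overlapped. The log2 fold change in aged liver was 1.91 ± 0.74 (adjusted p = 0.14). In the subset fits, with 2 animals per age, it was 1.94 (adjusted p = 0.00543) within replicates 1 and 2 and 1.76 (adjusted p = 0.0223) within replicates 3 and 4. Sult5a1 had 277, 568, 316 and 357 at 3 months, 210.5, 162, 224 and 212 at 12 months and 377, 311, 74.3 and 87.6 at 18 months. Middle-aged values were all below the young ones, while aged animals fell on both sides. The log2 fold change in aged liver was -0.84 ± 0.51 (adjusted p = 0.438), with -0.29 (adjusted p = 1) within replicates 1 and 2 and -2.06 (adjusted p = 7.05e-13) within replicates 3 and 4.

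Ugt1a5 showed the opposite direction, with 122, 56, 108 and 124 at 3 months, 159.9, 298, 169 and 246 at 12 months and 74.3, 124, 336 and 281 at 18 months. Aged replicates 3 and 4 were above all young ones, and aged replicates 1 and 2 overlapped them. The log2 fold change was 0.99 ± 0.40 (adjusted p = 0.158), with 1.41 (adjusted p = 3.81e-05) within replicates 3 and 4 and 0.15 (adjusted p = 1) within replicates 1 and 2. Ugt2b38 had 531, 261, 229 and 146 at 3 months, 54.6, 11.7, 199 and 81.2 at 12 months and 162, 178, 24.5 and 70.6 at 18 months. It ranged from 11.7 to 531 across the 12 animals and did not pass in aged liver (-1.42 ± 0.80, adjusted p = 0.386). Within replicates 3 and 4 of each age, 9 members were called in aged against young liver, where 4.22% of all genes were, and within replicates 1 and 2, 5 were, beside 1.24%. Without aged replicate 1 the full comparison called 10 members and 10.5% of all genes, against 3.58% with it. Ugt1a5 passed in middle-aged liver with the spike-in set as a covariate (1.14 ± 0.36, adjusted p = 0.0339) and in a fit of those ages only (1.08 ± 0.28, adjusted p = 0.00303).

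**Figure D4:**
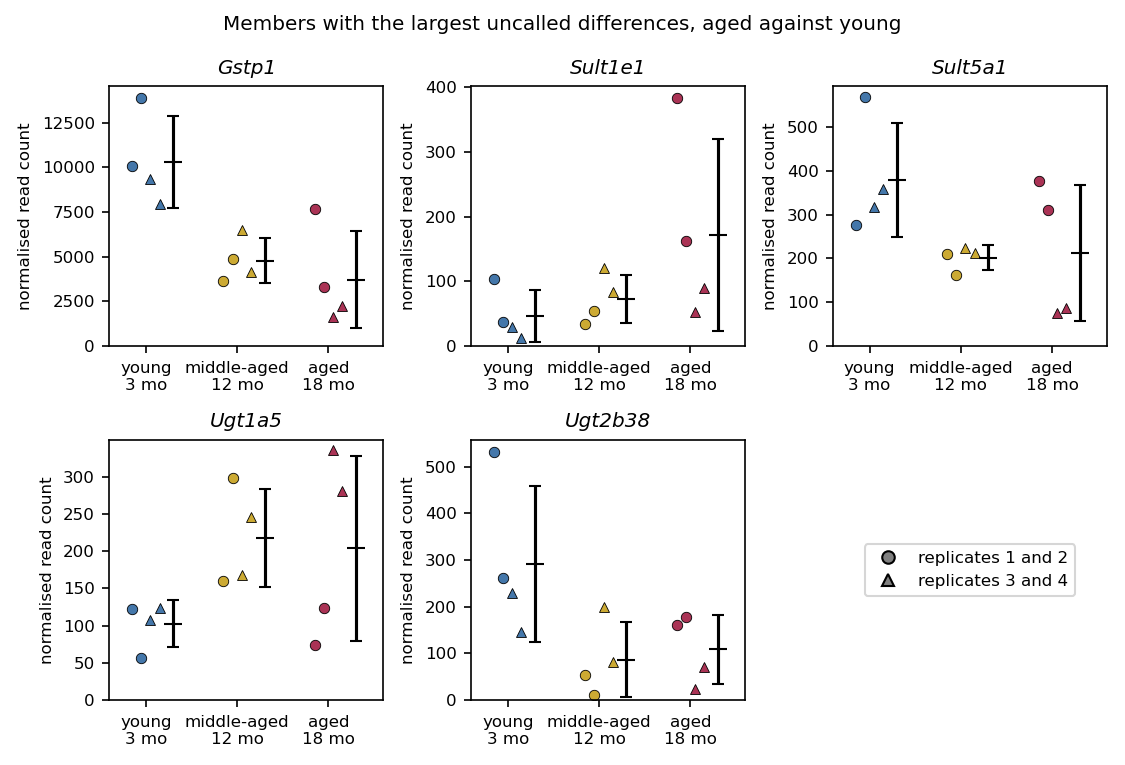
Normalised read count per library (vertical axis, from 0) by age for the 5 members with the largest uncalled log2 fold changes in aged against young liver and a mean of 50 or more; circles are replicates 1 and 2, triangles replicates 3 and 4, bars mean and SD (n = 4). In aged liver Gstp1 and Sult5a1 were lowest, and Ugt1a5 highest, in replicates 3 and 4.

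No sulfotransferase member was called with all 12 libraries fitted on age. Sult1d1 passed in aged liver within replicates 1 and 2, at -0.81 (adjusted p = 0.00689), and without aged replicate 4, and Sult1e1 without young replicate 1. Sult1a1 had 2381 ± 185, 2589 ± 324 and 2686 ± 285 in young, middle-aged and aged liver (0.17 ± 0.11 in aged liver, adjusted p = 0.468). Sult1d1, an enzyme for catecholamines and eicosanoids, had 1738 ± 381, 1438 ± 105 and 1284 ± 283 (-0.44 ± 0.17, adjusted p = 0.123). The 8 Sult2 members, in a family of enzymes for bile acids and hydroxysteroids, were near the detection floor. Sult2a7, the highest of them, had 4.25, 3.82, 2.37 and 8.79 at 3 months, 1.99, 9.88, 7.06 and 5.01 at 12 months and 5.02, 0.963, 27.1 and 20.6 at 18 months, and Sult2a1 and Sult3a1 did not exceed 2.37 and 3.55.

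By family, the sum of Ugt2 counts was 35950 ± 2555 at 3 months, 29051 ± 1900 at 12 months and 27247 ± 1893 at 18 months. The Gst pi sum was 10515 ± 2567, 5075 ± 1303 and 4016 ± 2759 at these ages, and the Mgst sum 31856 ± 1405, 27870 ± 1831 and 26403 ± 1707. Gst mu stood at 15393 ± 1791, 16612 ± 1660 and 16731 ± 1466, Gst alpha at 22930 ± 3485, 23658 ± 2053 and 24256 ± 3039, and Sult1 at 4680 ± 392, 4648 ± 393 and 4637 ± 569. These sums are descriptions without a test. Scaling by total gene counts instead raised the median of all genes by 0.13 (aged) and 0.12 (middle-aged) on the log2 scale, and with it the kappa, omega and zeta sum changed sign in aged liver, from -0.06 to 0.06.

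**Figure D5:**
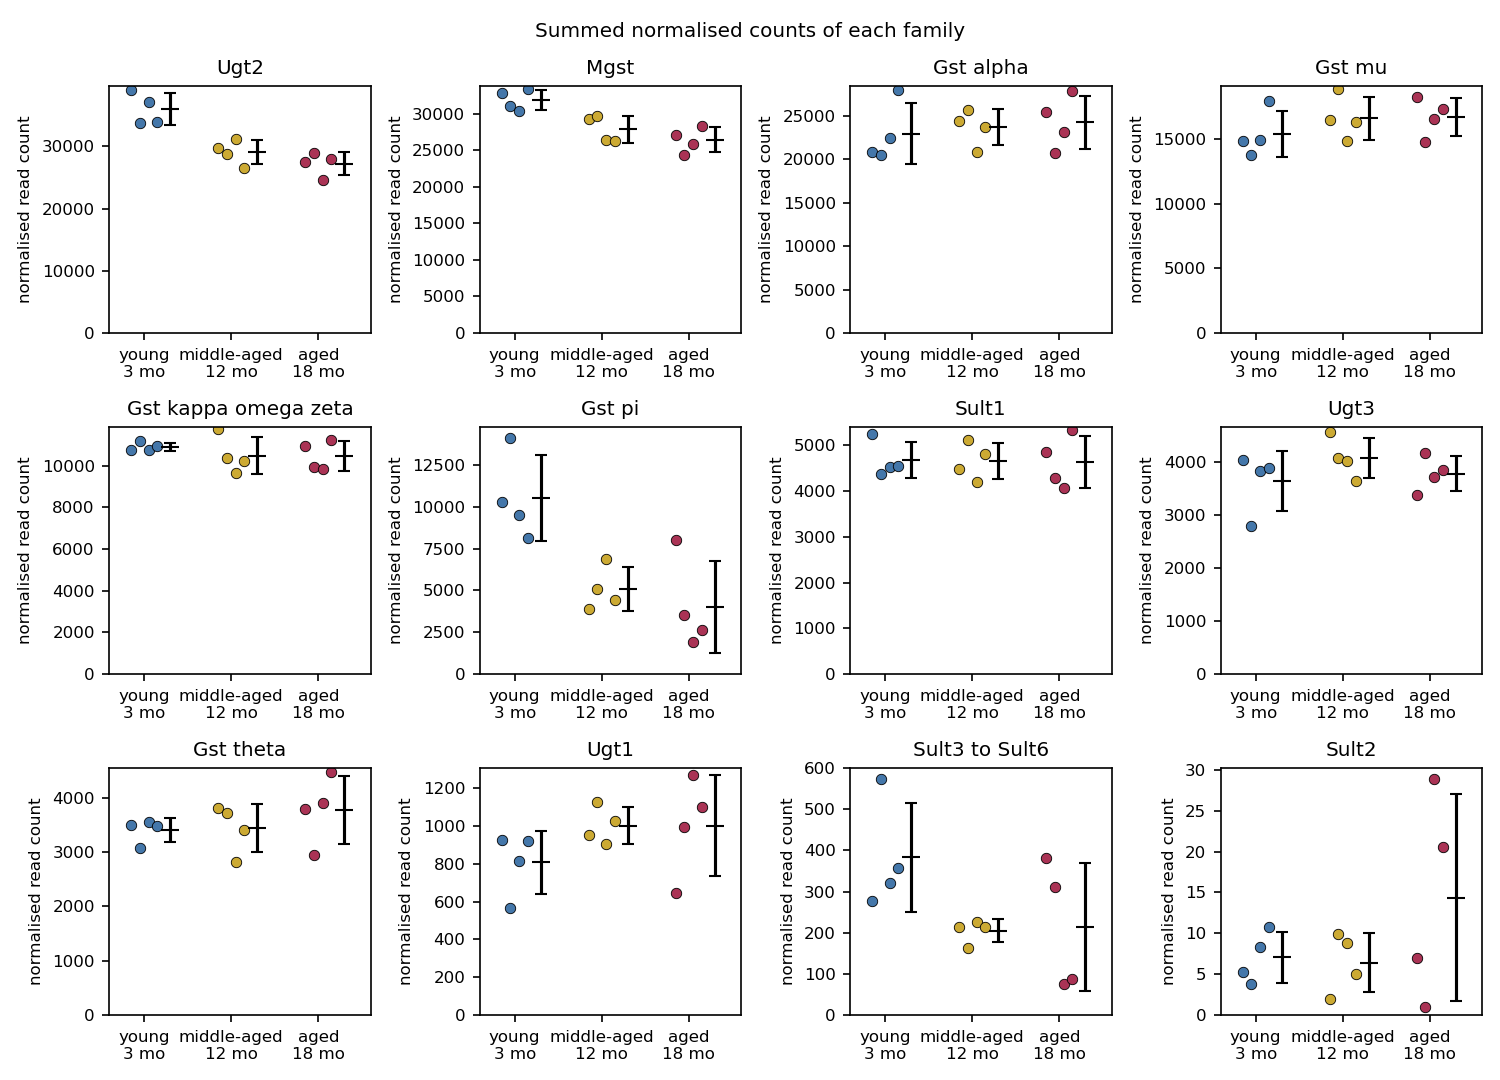
Summed normalised read counts per library (vertical axis, from 0) by age for the 12 families, with mean and SD (n = 4). With size factors, mean Ugt2, Gst pi and Mgst sums were lower at both later ages, and the Gst mu, Gst alpha and Sult1 sums overlapped between ages.

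Genes linked to conjugation were followed as lists, and not every listed gene supplies a cofactor. Of the 5 genes listed for glucuronidation, 1 was lower in aged liver: Slc35b1, an endoplasmic reticulum nucleotide carrier, at -0.47 ± 0.13 (adjusted p = 0.0148) and -0.72 ± 0.13 in middle-aged liver (adjusted p = 1.23e-05). Slc35d1, which carries UDP-glucuronic acid into that compartment, was higher in middle-aged liver (0.34 ± 0.11, adjusted p = 0.0315). None of 9 glutathione genes tested passed in aged liver, and 1, the glutamate-cysteine ligase modifier Gclm, was higher in middle-aged liver (0.22 ± 0.06, adjusted p = 0.00668). Of 8 genes listed for sulfonation, 3 were higher in middle-aged and none passed in aged against young liver. They were the PAPS synthase Papss2 (0.56 ± 0.14, adjusted p = 0.00364), the sulfate carrier Slc26a1 (0.60 ± 0.13, adjusted p = 0.000492) and the sulfatase Arsa (0.79 ± 0.12, adjusted p = 1.24e-07). Arsa, which does not make or carry PAPS, was also lower in aged than in middle-aged liver (-0.50 ± 0.12, adjusted p = 0.00739). In middle-aged liver the medians of these 3 lists were 0.1, -0.11 and 0.3 (log2), beside 0.007 over all genes tested.

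Of 15 other conjugating enzymes, the nicotinamide methyltransferase Nnmt was lower (-0.82 ± 0.25, adjusted p = 0.0389) and the glycine acyltransferase-like Gm4952 higher (0.49 ± 0.13, adjusted p = 0.00927) in aged liver. Of 12 xenobiotic-sensing regulators, Nfe2l2, which encodes the antioxidant response factor Nrf2, was higher in aged liver (0.68 ± 0.17, adjusted p = 0.00693). Ppara (0.76 ± 0.25, adjusted p = 0.0393) and Esr1 (0.71 ± 0.15, adjusted p = 0.000255) were higher in middle-aged liver.

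Genes with a known sex difference in mouse liver were also followed. Of 10 male-predominant liver genes, 5 were lower in aged and 4 in middle-aged against young liver and none was higher, with medians of -0.66 and -0.76. Among them Cyp4a12a gave -1.05 ± 0.20 (adjusted p = 3.45e-05) and Elovl3 -0.87 ± 0.23 (adjusted p = 0.00879) in aged liver, with Cyp7b1 (-0.84 ± 0.26, adjusted p = 0.037), Slco1a1 (-0.55 ± 0.16, adjusted p = 0.0287) and C6 (-0.77 ± 0.24, adjusted p = 0.0422). Of the female-predominant genes, 2 of 4 tested were higher in aged liver, Cyp2b9 and Acot3. Cyp2b9 had 12.7, 1.27, 0 and 0.976 in young and 1, 2.89, 629 and 398 in aged animals, so its rise lay in aged replicates 3 and 4, the animals with the lowest Gstp1 and Sult5a1. The part of these genes in the members' differences was not tested.

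Clock genes were also called. The list held Dbp, Tef, Hlf and Nfil3 together with the clock loop genes Nr1d1, Nr1d2, Arntl, Per1, Per2 and Per3. Of these 10, 4 were higher and 1 lower in middle-aged than in young liver, and none passed in aged against young liver. Between aged and middle-aged liver, 2 were higher and 4 lower in aged animals. Dbp had 188, 220.3, 173 and 129.8 at 3 months, 908, 657, 503 and 686 at 12 months and 173, 157, 18.4 and 52.7 at 18 months. Tef gave 0.91 ± 0.21 (adjusted p = 0.0018) and Nfil3 -1.01 ± 0.22 (adjusted p = 0.000691) in middle-aged against young liver. Between aged and middle-aged liver Ugt2b1 gave -0.21 ± 0.15 (adjusted p = 0.717) and Dbp -2.78 ± 0.56 (adjusted p = 0.000355). The time of day of collection is not given in the sources used here, and its part in the members' values was not tested.

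Markers of other cells were also followed, since in bulk tissue fewer cells of a type and less RNA per cell cannot be told apart. The 3 erythroid markers summed to 16870 to 60072 at 3 months, 9746 to 35995 at 12 months and 7398 to 15834 at 18 months, and 2 of 3 were lower in aged liver. The 5 Kupffer cell markers, 5 endothelial and 5 stellate cell markers had no call. Of 4 cholangiocyte markers tested, Sox9 was higher in aged liver (0.86 ± 0.24, adjusted p = 0.0169). The others, Krt19 (-0.27 ± 0.76), Krt7 (-0.1 ± 0.81) and Spp1 (-0.59 ± 0.37), were uncalled and negative, and the list median was -0.19. Lymphocyte markers summed to at most 178, kidney markers to at most 13, and no gut or pancreas marker was called. Of 3 gut markers, Fabp2 had 372 to 868 normalised counts, Vil1 at most 3.9 and Lct none. Of 3 pancreas markers, Cela1 had 259 to 794, Prss2 at most 1 and Amy2a5 none. The part of these cells in the members' differences was not tested.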

How the data were processed

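Steady-state RNA was measured by bulk RNA-seq of 12 livers, 4 per age, grouped by the ages in the labels. The authors deposited 1 table of raw whole-number read counts for 53465 genes and 92 spike-ins, without normalisation. The submitters' processing notes name STAR 2.5.2b, SAMtools 1.9, featureCounts and the builds mm10 and GRCm38; strand and multi-mapping settings are not given in the sources used here. Symbols and exons came from GENCODE M21 (53360 identifiers matched), promoter sequence from RefSeq (GRCm38.p6).

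Spike-ins were left out of these fits. Genes with at least 1 count (28449) were fitted in DESeq2 1.42.0 (R 4.3.3) with all 12 libraries and age as the only term, by Wald and likelihood ratio tests with Benjamini-Hochberg adjustment over all genes tested, called at an adjusted p under 0.05. Alternatives were edgeR 4.0.16 quasi-likelihood tests, other scalings, filters, sample sets and summed copies. The functions were tested on simulated data. Members were named if called in any test, among the top 2 of a family by mean, or among the 5 largest uncalled aged differences with a mean of at least 50. List genes were named if called, up to 6 a list. A further Sult symbol is not reported here. Members and lists were chosen with earlier results of these data known. P-values reflect the spread between animals. Leaving out both libraries with the most genes detected and scaling by spike-in counts were added after seeing the data.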

Additional observations from a re-analysis of the deposited data

Results flagged for a closer look

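Of 117 groups of 4 libraries examined among named members and family sums, 5 held a library far from the other 3, where chance flags about 1 in 20. Gstm6 was 1632 in young replicate 4 (others 1177 to 1241), Gstt1 was 2035 in middle-aged replicate 3 (others 2678 to 2793) and Sult1d1 was 1706 in aged replicate 4 (others 1111 to 1187). In young replicate 2, the library with 19.2% mitochondrial counts, the Gst theta sum was 3080 (others 3486 to 3553) and the Ugt3 sum 2794 (others 3834 to 4040). Spike-in rows, which the age comparisons left out except as an alternative scaling and to define the spike-in sets, held at least 1.59% of counts in every library.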

How the results depend on the processing

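For aged against young liver the count of 5 members called (3.58% of all genes) became 2 with edgeR (1.42%), 9 within replicates 3 and 4 of each age (4.22%) and 3 with near-identical members summed (3.57%), and leaving out 1 library gave 4 to 10 (10 without aged replicate 1, beside 10.5%). For middle-aged against young liver the count of 6 (6.41%) became 10 in a fit of those ages only (11.2%) and 3 within replicates 3 and 4 (3.64%), and leaving out 1 library gave 3 to 8 (3 without middle-aged replicate 1, beside 6.07%). For aged against middle-aged liver the count of 0 (1.14%) became 1 within replicates 1 and 2 (0.307%) and 6 within replicates 3 and 4 (2.47%), and stayed 0 without any 1 library. For the 3 ages together the count of 6 (6.96%) became 2 with edgeR (1.93%), and leaving out 1 library gave 5 to 11 (11 without aged replicate 1, beside 13.3%). Without both libraries with the most genes detected, an alternative chosen after seeing the data, 4, 5, 0 and 6 members were called. The shares of all genes called were then 2.23%, 2.15%, 0.416% and 3.32%. The cause was not tested. The Ugt1a rows summed gave 0.31 in aged and 0.31 in middle-aged liver, the opposite sign to Ugt1a9 alone. Under spike-in scaling Ugt2b1, Ugt1a9 and Mgst1 turned positive in aged liver, and Ugt2b1 and Ugt1a9 in middle-aged liver. Of the refits of called members, with sums and spike-in scaling left aside, 197 kept direction and call and 40 kept direction only. A further 5 gave no adjusted p for Ugt2b37. Scaling by total gene counts moved the kappa, omega and zeta, Mgst and Ugt2 sums by more than 1 SD.

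Replicate numbers came from the titles of different animals and did not pair the libraries: same-numbered libraries correlated between -0.303 and 0.159 in their deviations, and 1 of 12 libraries correlated best with its own number. With a replicate block, 4, 5, 0 and 4 members were called in the 4 tests, beside 2.85%, 3.23%, 1.5% and 3.47% of all genes. Aged Gsta2 (DESeq2 adjusted p = 0.0857) and Mgst1 (0.0586) and middle-aged Mgst3 (0.0733) were then not called, aged Gstp1 was (0.0367), and Mgst1 and Ugt2b37 were not called across the 3 ages. The 8 Sult2 members had a mean of at most 8.07 normalised counts, which limits the precision of their differences (Sult2a7 1.47 ± 0.85 in aged liver).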
